A study of Mus musculus with 24 samples.

Results

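The cytosolic ribosomal protein genes code for the proteins of the small (Rps) and large (Rpl) subunits of the ribosome that translates nuclear mRNA. They were taken by symbol from 23991 gene symbols: 103 symbols begin with Rpl or Rps and a digit or are Rplp0, Rplp1, Rplp2 or Rpsa. Of these, 6 with -ps in the symbol and 10 of the kinase family Rps6k were left out, which left 87. A mean of at least 5 FPKM (fragments per kilobase of transcript, scaled to the mapped fragments of the library) over 24 libraries was met by 84 of the 87. Just below that limit lay Rpl3l at 0.458, Rpl39l at 0.312 and Rpl10l at 0.0256 FPKM, and just above it Rps4l at 12, Rpl21 at 21 and Rps15a at 27.0 FPKM. The 84 comprise 49 Rpl and 35 Rps symbols, and all 84 passed the filter on low values in every fit. The rule works on symbols, so it also keeps Rps19bp1, a protein that binds RPS19, Rpl7l1, a paralog that acts in ribosome assembly, and Rps4l, which the GENCODE annotation lists as a transcribed processed pseudogene. Fau and Gnb2l1 code for ribosomal proteins under other symbols and are given apart.

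RNA was sequenced from cells sorted from the bone marrow of C57BL/6 mice, in 8 groups of 3 libraries. The LSK gate (Lin-Sca1+cKit+) takes blood stem cells together with early multipotent progenitors. GMP stands for granulocyte-macrophage progenitors. Both populations came from 4 genotypes: WT, Flt3-ITD (a tandem duplication within the receptor gene Flt3, labelled ITD), Ern1(fl/fl)-VavCre (labelled IRE1_KO) and the last 2 together (labelled IRE1_KO_ITD). Vav-Cre acts in blood cells at large, so the deletion is not limited to the sorted populations. The labels give no ages and do not say that each library came from a separate animal, so p-values measure the spread between these libraries, which may be technical.

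A ribosome holds a single copy of nearly every ribosomal protein, and cells keep the output of their genes balanced. The mRNAs of these genes begin with a C followed by a run of pyrimidines, the TOP motif, through which the kinase mTORC1 controls their translation. Blood formation is sensitive to the dose of these proteins: loss of a copy of RPS19, RPL5, RPL11 and others causes Diamond-Blackfan anaemia in humans, and RPL5 and RPL11 that are not built into ribosomes bind MDM2 and so stabilise p53. Blood stem cells are known for a low rate of protein synthesis.

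The start sites of some members show the run of pyrimidines, and it is given here because it is the shared feature by which these mRNAs are known. RefSeq windows on GRCm38.p6, from 250 bases before to 50 bases after the start, were found for 63 of the 84 genes. A C at the start base with at least 4 pyrimidines after it was found for 14 of 63 (22.2%), against 3.01% of 27025 symbols with a window. Below are 30 bases with the start at base 16, 5′ to 3′, and capitals mark the run of C and T that covers the start. Rpl38 and Rps18 are among the 5 members of highest level, Rps6 is the small subunit protein that S6 kinases phosphorylate, and Rps27 and Rps27rt are copies of each other. Rpl10, Rpl26 and Rpl36al, which vary most by group among the large subunit genes below, have no such run at the annotated start. A run covers the start in 21 of the 63 genes, so its lack is common, and a link with variation was not tested.
Rpl38 (chr11:114668565-114668594, plus strand): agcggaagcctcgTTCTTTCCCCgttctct
Rps18 (chr17:33955651-33955680, minus strand): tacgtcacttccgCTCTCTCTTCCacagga
Rps6 (chr4:86857353-86857382, minus strand): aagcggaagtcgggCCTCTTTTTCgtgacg
Rps27 (chr3:90213634-90213663, minus strand): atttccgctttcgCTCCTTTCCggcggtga
Rps27rt (chr9:114982725-114982754, minus strand): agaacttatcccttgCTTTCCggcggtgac
Rpl10 (chrX:74270801-74270830, plus strand): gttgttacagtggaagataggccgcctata
Rpl26 (chr11:68901551-68901580, plus strand): ctcgcggcaacttacagaaccggaagtcgc
Rpl36al (chr12:69184053-69184082, minus strand): cattcccgtcgctcaggttcagttccgact

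Over the whole windows of 300 bases, CCGGAAG on either strand (the core bound by ETS and GABP factors) lay in 25 of 63 member genes (39.7%) and in 9.93% of all symbols. The E-box CACGTG, which MYC binds and which is its own reverse complement, lay in 6 (9.52%) against 8.09%. TATAAA within 40 to 15 bases before the start, on the gene's strand, was found for 1 of 63 (1.59%) against 2.41%. A match is a run of letters, not a measured site.

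FPKM summed to between 510361 and 673177 per library, and read totals were not used here. Low values, which step by single fragments, gave relative depths from 0.919 to 1.29 with WT LSK replicate 1 as the unit. The LSK marker genes summed to 754 to 1206 FPKM in the LSK libraries and 171 to 325 in GMP, and the GMP markers to 1041 to 3426 in LSK and 18853 to 31652 in GMP, as labelled. Ern1 was not lower under the Ern1 label: it lay at 6.64 to 12.9 FPKM in labelled LSK against 3.73 to 7.56 in the others. Since FPKM are per gene and the floxed exons cannot be seen apart, this neither checks the deletion nor tests the labels. Genotypes are therefore named as labelled. A 1ng tag stands in the file headers of the 3 IRE1_KO LSK libraries alone, where Mir6236 made up 0.175% to 0.904% of the FPKM against 4.41% to 6.24% in other LSK libraries. This tag and the genotype cannot be told apart in any comparison that uses that group. By Xist and Y-linked genes, the ITD libraries were all female, and the other genotypes mixed.

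Members differed widely in level, although the ribosome needs equal numbers of nearly all of them. Mean FPKM, a level per transcript length, ran from 12 to 2984 with a median of 566. The 5 highest were Rps29 at 2984, Rpl38 at 2840, Rpl41 at 2592, Rps18 at 2262 and Rpl32 at 2252 FPKM, genes of either subunit. Many members also share sequence with copies elsewhere. Of the 84, 31 have every 50-base window of the coding sequence in the transcript of at least 1 other annotated gene, mostly pseudogenes. A fragment that lies within such a window cannot be assigned by its sequence alone. Untranslated ends and longer stretches were not compared. The 5 members with 50 or more such genes had a median of 122 FPKM, the 34 with 10 to 29 one of 520 and the 43 with 1 to 9 one of 841. Across the 84 genes, Spearman's rho between the number of sharing genes and the mean level was -0.31, a description over genes that share libraries. Rpl7a (123 genes sharing), Rpl29 (84), Rpl21 (82) and Rps2 (71) carried the most copies, and Rps19bp1 had none. The sources used here do not say how shared fragments were split, so the levels of members with copies are uncertain.

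Rps27 and Rps27rt are a pair with such shared sequence. Rps27 (chromosome 3, 90212522 to 90213651, GRCm38) is the gene with introns, Rps27rt (chromosome 9, 114982366 to 114982739) its retroposed copy, and all windows of either coding sequence occur in the other. The deposited values put a mean of 46.7 FPKM on Rps27 and 872 to 2142 FPKM, by library, on Rps27rt. Within groups, Rps27 moved more than any other member, with a pooled SD of 1.02 log2 units against a median of 0.15 over the 84. Rps27rt had a pooled SD of 0.23, and the cause of the spread of Rps27 was not tested. In WT LSK Rps27 stood at 36.9, 108 and 29 FPKM and in IRE1_KO_ITD LSK at 19.2, 20.0 and 87.4 FPKM. These groups overlap, and Rps27 passed the test in none of the 16 comparisons.

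**Figure D1:**
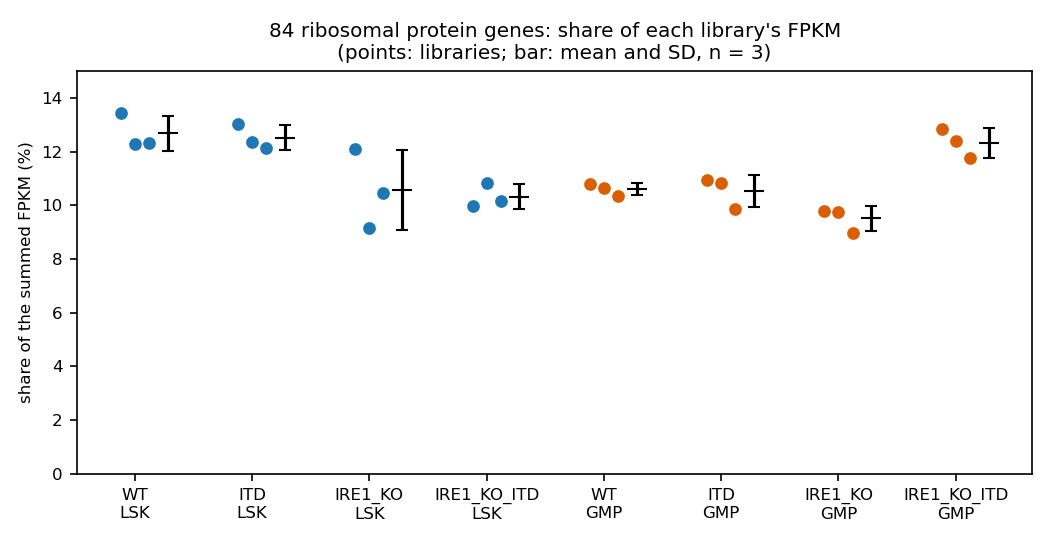
Share of each library's summed FPKM taken by the 84 genes (vertical axis, percent) for the 8 groups (horizontal axis), with 1 point per library and the mean and SD beside them. IRE1_KO_ITD LSK lies at 9.97% to 10.8%, under ITD LSK at 12.2% to 13.0%, and IRE1_KO_ITD GMP at 11.8% to 12.8% lies over the other GMP groups.

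The share of the summed FPKM taken by the 84 genes together was not the same in all groups. It was highest in WT LSK at 12.7% ± 0.659 (SD, n = 3), ITD LSK at 12.5% ± 0.467 and IRE1_KO_ITD GMP at 12.3% ± 0.551, whose ranges overlap. WT GMP at 10.6% ± 0.219, IRE1_KO LSK at 10.6% ± 1.48, ITD GMP at 10.5% ± 0.591 and IRE1_KO_ITD LSK at 10.3% ± 0.465 followed, again with overlapping ranges. IRE1_KO GMP was lowest at 9.52% ± 0.460. The share depends on the library totals too, which were 510361 to 571899 FPKM in LSK and 567255 to 673177 in GMP. The FPKM of the 84 genes summed to a mean of 67876 in WT LSK and 67246 in WT GMP. That sum was highest in IRE1_KO_ITD GMP at 74048 and lowest in IRE1_KO_ITD LSK at 52857. IRE1_KO LSK was the least even group, at 12.1%, 9.16% and 10.5% in replicates 1 to 3. In bulk samples, fewer cells of a type and less RNA per cell cannot be told apart. Of the 84 genes, 48 had their lowest group mean of log2(FPKM + 1) in IRE1_KO_ITD LSK and 24 in IRE1_KO LSK, and 41 had their highest in IRE1_KO_ITD GMP and 23 in ITD LSK.

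**Figure D2:**
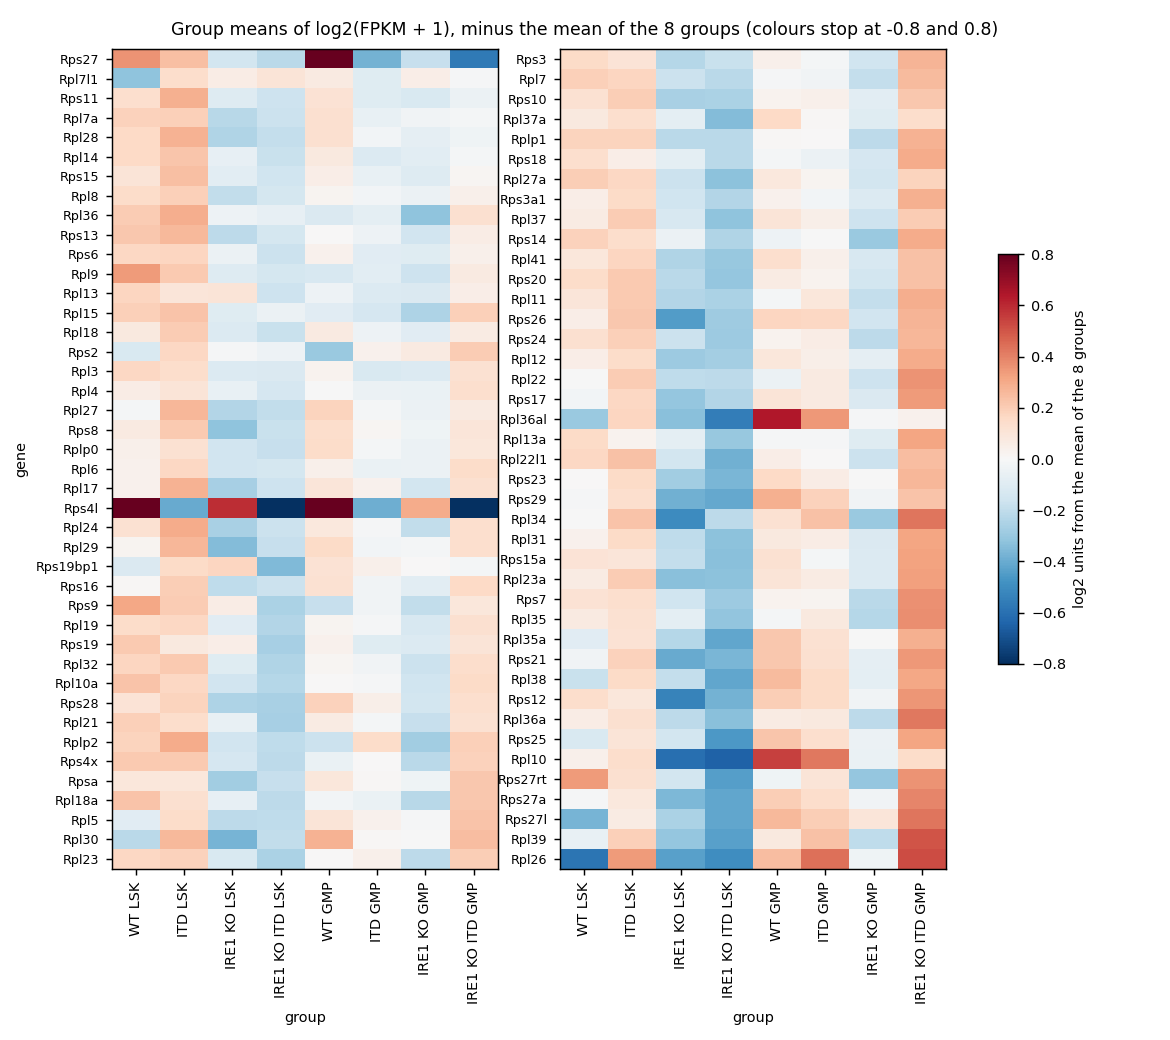
Mean of log2(FPKM + 1) of 83 of the 84 genes (rows) in each of the 8 groups (columns), minus the gene's mean over the groups, with red above and blue below, in a pair of panels with genes ordered by the difference between GMP and LSK in IRE1_KO_ITD. Most rows are blue in IRE1_KO_ITD LSK and red in IRE1_KO_ITD GMP, while Rps4l, Rps27, Rpl7l1 and Rpl36al keep patterns of their own.

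IRE1_KO_ITD was set against ITD within LSK to ask what the Ern1 label adds on the Flt3-ITD background. Nearly all ribosomal protein genes were lower in IRE1_KO_ITD LSK. Rplp0, the stalk base protein, stood at 1107, 1005 and 1074 FPKM in ITD LSK and at 873, 846 and 851 FPKM in IRE1_KO_ITD LSK. The 3 IRE1_KO_ITD values lie below all ITD values, and Rplp0 fell by 0.31 ± 0.08 log2 units (SE; limma adjusted p = 0.0234). A gene is said to rise or fall here where its limma p, adjusted by the Benjamini-Hochberg method over all genes of the comparison, is under 0.05. By that rule 67 of 84 fell and 0 rose, against 6.96% of 11955 tested genes that fell and 13.3% that rose. The median log2 fold change of the 84 was -0.44, against 0.06 for all tested genes. In 81 of 84 every IRE1_KO_ITD library lay below every ITD library, as in 16.4% of all genes, and in none did they lie above, as in 24% of all genes. Within groups the members moved together: the correlation of a member with the mean of the others had a median of 0.81. Counts of members, here and below, are therefore not counts of independent results.

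Members of both subunits fell, 42 of 49 Rpl and 25 of 35 Rps symbols, with a median of -0.44 for each, and the difference between the subunits was not tested. Rpl10, which joins the large subunit late, stood at 302, 271 and 274 FPKM in ITD LSK and 162, 172 and 156 in IRE1_KO_ITD LSK, without overlap, and fell by 0.78 ± 0.12 (adjusted p = 0.00275). Rpl38, a large subunit protein known for roles in the translation of selected mRNAs, stood at 3234, 3083 and 2997 against 1954, 2190 and 2140 FPKM. It fell by 0.57 ± 0.12 (adjusted p = 0.00799), again without overlap. Rps19, the gene most often mutated in Diamond-Blackfan anaemia, stood at 1130, 1087 and 1114 against 873, 891 and 863 FPKM and fell by 0.34 ± 0.08 (adjusted p = 0.0111). Of the 22 mouse genes whose human counterparts are linked to that disease, all of them among the 84, 15 fell and 0 rose. Rpl5 fell by 0.35 ± 0.11 (adjusted p = 0.0476) and Rpl11 by 0.46 ± 0.12 (adjusted p = 0.0193). Rps6 fell by 0.34 ± 0.10, Rplp1 by 0.39 ± 0.12 and Rplp2 by 0.50 ± 0.09 (adjusted p = 0.0404 or lower). Of members that belong to pairs of paralogs, Rpl22 fell by 0.41 ± 0.11, Rpl22l1 by 0.62 ± 0.20, Rpl39 by 0.62 ± 0.18, Rpl36a by 0.46 ± 0.13 and Rpl36al by 0.72 ± 0.12.

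The 17 that did not pass had values from -0.04 to -0.50. Rpl3, which sits at the peptidyl transferase centre, was at -0.26 ± 0.10 (adjusted p = 0.0919), Rpsa at -0.28 ± 0.13 (adjusted p = 0.150) and Rps18 at -0.27 ± 0.10 (adjusted p = 0.0929). Rpl7l1 was at -0.04 with an adjusted p of 0.848. Among the 14 genes with under 50% of coding windows shared, where fragments are easier to assign, 10 fell and the median was -0.43.

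**Figure D3:**
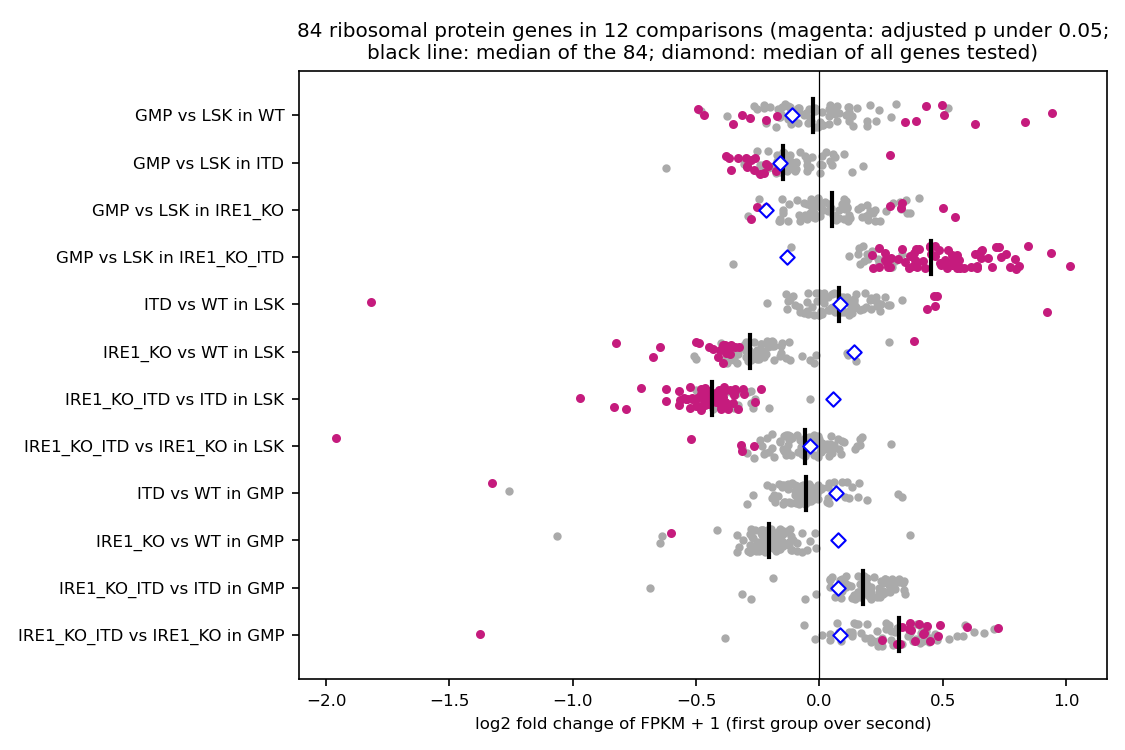
Log2 fold change of FPKM + 1 (horizontal axis) of each of the 84 genes in 12 comparisons (rows), in magenta where the limma adjusted p is under 0.05, with a black line at the median of the 84 and a diamond at that of all tested genes. The 84 lie left of 0 in IRE1_KO_ITD against ITD in LSK, with a median of -0.44, and mostly right of it in GMP against LSK of IRE1_KO_ITD, with a median of 0.45.

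Other transcripts of the same length and level moved too. The 84 are short, with a median transcript of 705 bases against 2558.5 for all tested genes. In the same comparison, 370 other genes under 1000 bases and over 100 FPKM had a median of -0.35, and 178 of them fell and 0 rose. Other genes under 1000 bases at any level had a median of -0.22, and those over 3000 bases one of 0.17. With each library corrected for length and GC content, 3 of the 84 fell and their median was -0.14, and with quantile normalization 6 fell and it was -0.12. The 84 stayed below the median of all genes in all 17 alternatives, by 0.10 to 0.54 log2 units. Leaving out 1 library left 31 calls without ITD LSK replicate 1, 27 without replicate 2, 27 without replicate 3, 15 without IRE1_KO_ITD LSK replicate 1 and 10 without its replicate 3. Late neutrophil markers moved as well: 4 of 7 fell. The 7 summed to 107 to 378 FPKM in IRE1_KO_ITD LSK against 456 to 2335 in ITD LSK, and none is at 0 throughout. Of 10 LSK markers 2 rose and 1 fell, and 1 of 2 tested T and NK cell markers fell. No GMP, B cell or erythroid marker passed. The part of these markers in the result was not tested.

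**Figure D4:**
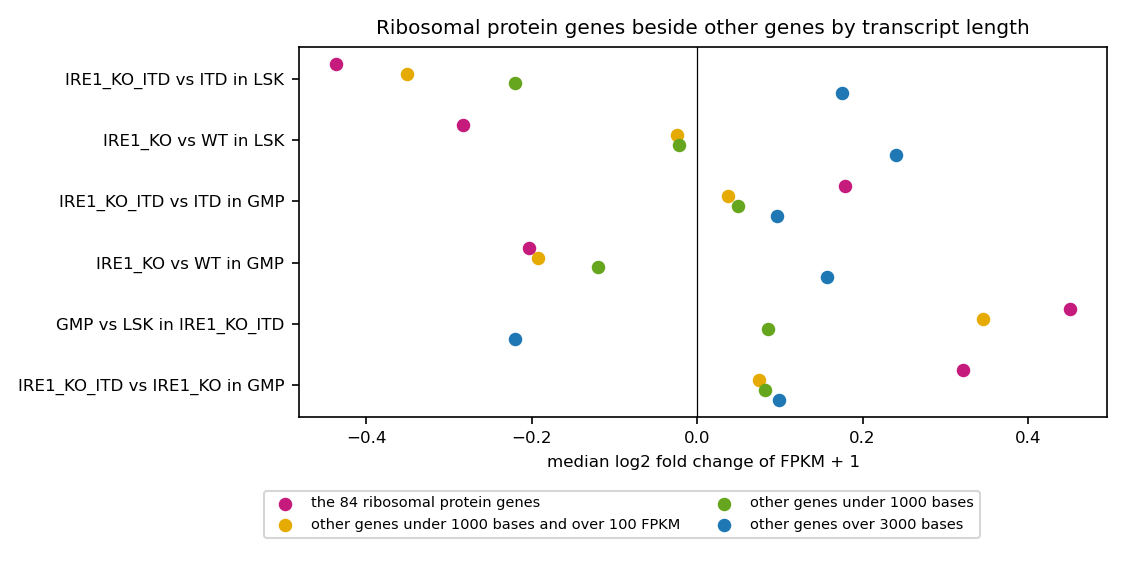
Median log2 fold change of FPKM + 1 (horizontal axis) of the 84 genes and of 3 classes of other genes by transcript length and level, in 6 comparisons (rows). In IRE1_KO_ITD against ITD in LSK the short genes of high level, at -0.35, lie near the 84 at -0.44, and in IRE1_KO_ITD against IRE1_KO in GMP they lie at 0.08, apart from the 84 at 0.32.

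Without the duplication, IRE1_KO LSK was lower than WT LSK for fewer genes. Of the 84, 18 fell and 1 rose, against 2.72% and 21% of all genes, and the median was -0.28 against 0.14. For 20 of the 84 every IRE1_KO library lay below every WT library and for 1 above, as for 6.25% and 29.7% of all genes. Rps12 fell by 0.68 ± 0.19, Rpl34 by 0.50 ± 0.11 and Rpl10 by 0.64 ± 0.12 (adjusted p = 0.0221 or lower), and Rpl7l1 rose by 0.38 ± 0.11 (adjusted p = 0.0310). Rpl34, a large subunit protein, stood at 265, 215 and 216 FPKM in WT and 182, 139 and 170 in IRE1_KO, without overlap. The other short genes of high level had a median of -0.02 here. The IRE1_KO LSK group is the one with the 1ng tag. Of the cell type markers, 2 of 10 LSK and 1 of 8 GMP markers rose and 1 of 6 B cell markers fell, and their part was not tested. The count changed when single libraries of either group were left out. It was 62 of the 84 without IRE1_KO LSK replicate 1, 2 without replicate 2 and 3 without replicate 3. It was 3 without WT LSK replicate 1 and 4 without WT LSK replicate 2. Calls also ran from 3 in a fit of the compared libraries alone to 68 with median-ratio size factors, and the median stayed under 0 in all 16 alternatives. The test of whether the Ern1 label acts differently with and without the duplication in LSK, a comparison added after the data were seen, called 3 of 84 lower (5.58% of all genes were lower and 1.36% higher): Rpl26, Rpl36al and Rps27l. Leaving out 1 library left none without WT LSK replicate 2 or 3, ITD LSK replicate 3, IRE1_KO LSK replicate 1 or 2 or IRE1_KO_ITD LSK replicate 1 or 2, 1 without ITD LSK replicate 2 or IRE1_KO_ITD LSK replicate 3, and 6 without IRE1_KO LSK replicate 3.

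In GMP the Ern1 label went with different values. On the Flt3-ITD background 0 of 84 passed in limma (0.916% of all genes rose and 0.916% fell), and 16 had an unadjusted p under 0.05, 13 of them higher in IRE1_KO_ITD, beside 18.1% of all genes under that p. The median was 0.18, above 0 in all 16 alternatives, against 0.07 for all tested genes. It lay above that of all genes by 0.105, and by as little as 0.033 with 1 library left out. The libraries lay apart for 16 higher and 3 lower, as for 14.2% and 5.49% of all genes. Rps18 stood at 1956, 2622 and 1993 FPKM in ITD GMP and 3260, 2766 and 2306 in IRE1_KO_ITD GMP, and these overlap. Late neutrophil markers summed to 2321 to 92927 FPKM in ITD GMP against 1407 to 14738 in IRE1_KO_ITD GMP. Of the 7, 0 passed, and their part was not tested. Without the duplication, Rpl10 alone fell in IRE1_KO GMP (0.507% of all genes fell and 0.0267% rose). The median of the 84 was -0.20 against 0.08 for all tested genes, with 83 of 84 values below 0. The 370 other genes under 1000 bases and over 100 FPKM had a median of -0.19, close to that of the 84. Over 10 alternatives other than leaving out 1 library, the median of the 84 ran from -0.28 to -0.0045. For 45 of the 84 all IRE1_KO GMP libraries lay below all WT GMP libraries, as for 7.81% of all genes, and for none above, as for 17.1%. Testing the difference of the 2 Ern1 label effects in GMP gave 0 calls in limma among the 84 and among all genes (0% of all). Of the 84, 38 had an unadjusted p under 0.05, all higher, beside 13.05% of all genes under that p. The median of this difference was 0.39 for the 84, 0.23 for the other short genes of high level and 0.0058 for all tested genes.

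Whether the effect of the label on the Flt3-ITD background differed between populations was tested directly, again as an added comparison. It was higher in GMP than in LSK for 50 of 84 and lower for 0, against 2.8% and 3.54% of all genes. All 84 values lay above 0 with a median of 0.61, against 0.03 for all tested genes. The 370 other genes under 1000 bases and over 100 FPKM had a median of 0.39, with 48 higher and 0 lower. Of 7 late neutrophil markers 0 passed, and their part was not tested. Among the 84, Rps21 (0.77 ± 0.19), Rpl23a (0.79 ± 0.21) and Rps25 (0.75 ± 0.19) were among the highest (adjusted p = 0.0335 or lower). The calls are less steady than the values: 0 remained with quantile normalization and 0 in a fit of the compared libraries alone, while the median stayed between 0.27 and 0.67. Leaving out 1 library left 1 call without IRE1_KO_ITD LSK replicate 3 or IRE1_KO_ITD GMP replicate 1, 4 without IRE1_KO_ITD GMP replicate 2, 7 without ITD GMP replicate 3, 10 without IRE1_KO_ITD LSK replicate 1, 16 without ITD LSK replicate 1 or 2, 27 without IRE1_KO_ITD LSK replicate 2, 28 without ITD LSK replicate 3 and 33 without ITD GMP replicate 1.

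IRE1_KO_ITD was also set against IRE1_KO, to ask what the duplication does on the Ern1 background. In GMP, 17 of 84 rose and 1 fell, against 8.47% and 4.5% of all genes, with a median of 0.32 against 0.08. The groups lay apart for 58 higher and 1 lower, as for 22.5% and 10.5% of all genes. Rplp1, a stalk protein, rose by 0.49 ± 0.09, Rpl34 by 0.72 ± 0.13 and Rpl11 by 0.48 ± 0.12 (adjusted p = 0.0270 or lower). Rpl11 stood at 459, 466 and 467 FPKM in IRE1_KO GMP and 718, 679 and 558 in IRE1_KO_ITD GMP, without overlap. Of the marker genes of the sorted cells, 3 of 8 GMP markers fell (25532 to 29488 FPKM summed in IRE1_KO GMP against 18986 to 22034 in IRE1_KO_ITD GMP) and 3 of 7 tested LSK markers rose (171 to 237 against 287 to 325). B cell, erythroid and late neutrophil markers moved too: 5 of 5, 6 of 7 and 2 of 7 tested members fell, the B cell markers summing to 80.2 to 217 FPKM in IRE1_KO GMP against 40.3 to 41.8 in IRE1_KO_ITD GMP, the erythroid markers to 426 to 1069 against 27.2 to 66.1, and the late neutrophil markers to 17242 to 82981 against 1407 to 14738. Their part was not tested. The count fell to 6, 7 and 4 without IRE1_KO GMP replicates 1, 2 and 3, and to 3 and 6 without IRE1_KO_ITD GMP replicates 1 and 2, and was 29 without its replicate 3. In LSK 5 fell and 0 rose, against 19.6% and 11.7% of all genes: Rps4l, Rps19bp1, Rps19, Rps9 and Rpl13. There 8 were called without IRE1_KO LSK replicate 2 and 3 without IRE1_KO_ITD LSK replicate 3. Of the LSK markers 5 of 10 fell there too, as did 6 of 6 B cell, 6 of 7 erythroid and 7 of 7 late neutrophil markers, and their part was not tested.

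Between the populations, the direction and number of calls depended on the scaling in WT, ITD and IRE1_KO, while in IRE1_KO_ITD more members were higher than lower in GMP in every alternative. In WT, 8 of 84 were higher in GMP than in LSK and 7 lower, against 19% and 31.3% of all genes. The libraries lay apart for 13 higher and 15 lower, as for 23.7% and 37.3% of all genes. Their median of -0.03 changed sign with median-ratio size factors, to 0.12, and with an equal FPKM sum over all but short loci 3 were higher and 48 lower. Rpl36al rose by 0.94 ± 0.13, Rpl26 by 0.83 ± 0.19, Rps27l, a paralog of Rps27 that p53 induces, by 0.63 ± 0.14 and Rpl10 by 0.51 ± 0.10, and Rps9 fell by 0.49 ± 0.10 and Rpl9 by 0.47 ± 0.11 (adjusted p = 0.00127 or lower). In ITD 1 rose and 15 fell (13.7% and 26.8% of all genes), while 1 rose and 0 fell with median-ratio size factors, 1 rose and 27 fell with quantile normalization, and 0 rose and 39 fell with an equal FPKM sum over all but short loci. In IRE1_KO 5 rose and 3 fell (12.2% and 38.5%), while 41 rose and 0 fell with median-ratio size factors and 6 rose and 13 fell with quantile normalization. In IRE1_KO_ITD 67 of 84 were higher in GMP and 0 lower, against 14.2% and 26.5% of all genes, with a median of 0.45 against -0.13. For 77 of the 84 all GMP libraries of that genotype lay above all its LSK libraries, as for 18.5% of all genes, and for none below, as for 33.3%. Rps29 stood at 2065, 2332 and 2221 FPKM in LSK and 3697, 3648 and 2985 in GMP of that genotype, without overlap, and rose by 0.64 ± 0.15 (adjusted p = 0.00240). Rpl26 rose by 1.02 ± 0.19, Rpl39 by 0.94 ± 0.22 and Rps27l by 0.85 ± 0.14 (adjusted p = 0.00231 or lower). Other short genes of high level had a median of 0.35 there. The median of the 84 stayed above 0 in all 17 alternatives but was 0.03 with quantile normalization, where 14 were higher and 7 lower. Leaving out 1 library gave 8 calls in WT without WT GMP replicate 3, 6 in ITD without ITD LSK replicate 1 or ITD GMP replicate 3, and in IRE1_KO 25, 5 and 4 without IRE1_KO LSK replicates 1, 2 and 3.

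Flt3-ITD alone changed few of these genes. In LSK, 5 rose and 1 fell (14.9% and 7.27% of all genes): Rpl26 by 0.92 ± 0.15, Rpl30 by 0.48 ± 0.10, Rpl36al by 0.47 ± 0.12, Rpl7l1 by 0.47 ± 0.11 and Rps27l by 0.44 ± 0.11 (adjusted p = 0.0214 or lower), and Rps4l fell. Without regard to the test, 18 of the 84 had all ITD LSK libraries above all WT LSK libraries and 4 below, as for 25.8% and 13.5% of all genes. The count of calls was 3 without WT LSK replicate 2. Markers moved between these groups: 4 of 10 LSK markers fell (943 to 1130 FPKM summed in WT against 754 to 848 in ITD), as did 6 of 6 B cell (129 to 222 against 40.3 to 60.4), 6 of 7 erythroid (421 to 1488 against 145 to 447) and 7 of 7 late neutrophil markers (4744 to 9634 against 456 to 2335). In GMP, Rps4l alone fell (3.32% of all genes fell and 7.37% rose), and 2 were called without WT GMP replicate 1. There 5 of 8 GMP markers fell (30154 to 31652 FPKM summed in WT against 18853 to 22516 in ITD), as did 4 of 5 tested B cell and 5 of 7 erythroid markers. The part of these markers in either result was not tested. The test of the difference called 5 of 84, all with the lower effect in GMP (7.1% of all genes were lower and 6.45% higher): Rpl36al, Rpl30, Rpl7l1, Rpl27 and Rps16. The call for Rpl36al held in all 23 alternatives. The count was 1 without WT LSK replicate 2, WT GMP replicate 1 or ITD GMP replicate 3, 2 without ITD LSK replicate 1 or 2 or WT GMP replicate 3, and 3 without WT LSK replicate 3, ITD LSK replicate 3 or WT GMP replicate 2.

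**Figure D5:**
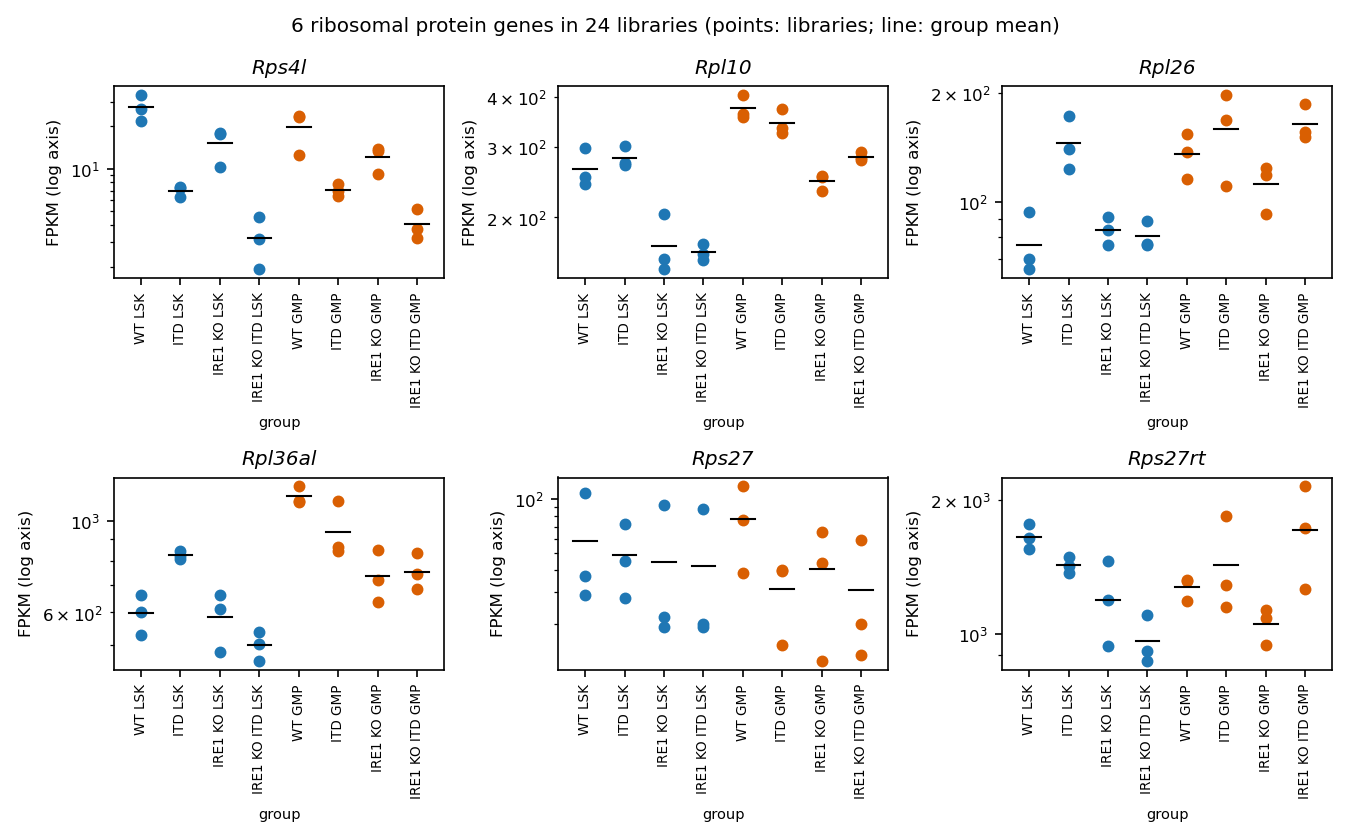
FPKM on log axes (vertical) of 6 genes in the 8 groups (horizontal), with 1 point per library and a line at each group mean. Rps4l is low in all 12 libraries with the duplication, Rpl10 is low under the Ern1 label within each population, and Rps27 scatters within every group.

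Single members departed from the common pattern. Rps4l (chromosome 6, 148354656 to 148355598) was the 1 member that separated all 12 libraries with Flt3-ITD from the 12 without (0.454% of all genes lay lower without overlap and 0.389% higher). It was also the 1 member to do so within LSK (5.98% lower and 6.37% higher) and within GMP (3.2% and 6.03%). Its FPKM in LSK were 26.7, 22 and 33.6 in WT, 18, 17.5 and 10.3 in IRE1_KO, 6.28, 7.31 and 7.36 in ITD and 1.93, 4.52 and 3.16 in IRE1_KO_ITD. It fell with the duplication by 1.82 ± 0.26 in LSK (adjusted p = 0.00145) and 1.33 ± 0.25 in GMP (adjusted p = 0.00951). The call in LSK held in all 17 alternatives, and that in GMP was lost with sex as a covariate (adjusted p = 0.0527). It shares 14.9% of its windows with another gene. Its correlation with the mean of the other members over the 24 libraries was 0.10, against a median of 0.84 over the 84.

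Rpl10 (chromosome X, 74270812 to 74273135) was lower under the Ern1 label within each population. In GMP it stood at 406, 364 and 357 FPKM in WT, 335, 373 and 325 in ITD, 252, 254 and 234 in IRE1_KO and 291, 279 and 281 in IRE1_KO_ITD. All 6 labelled libraries lie below the 6 others, as they do for Rpl10 and 13 more members in LSK (0.756% of all genes in GMP and 0.494% in LSK). No member lay above without overlap, as 0.596% of all genes did in GMP and 9.19% in LSK. Over all 24 libraries no member separated the Ern1 label, and 0.0081% of all genes lay lower and 0.0162% higher. It fell by 0.60 ± 0.08 in IRE1_KO GMP (adjusted p = 0.00711), a call lost with length and GC correction and with either equal FPKM sum, while both LSK calls held in every alternative. All of its coding windows occur in Rpl10-ps1, 1 of 15 genes that share them.

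Rpl26, a large subunit protein near the exit tunnel, also known to bind p53 mRNA, stood at 94.0, 65.4 and 69.7 FPKM in WT LSK and 173, 123 and 140 in ITD LSK, without overlap. In IRE1_KO_ITD LSK it stood at 76.4, 76.9 and 88.6, and it fell against ITD by 0.83 ± 0.15 (adjusted p = 0.00515). Rpl36al, an intronless paralog of Rpl36a, stood at 661, 530 and 602 in WT LSK, 821, 809 and 846 in ITD LSK and 1210, 1115 and 1109 in WT GMP, with no overlap between these groups. At the other end, Rpl4, Rpl3, Rpl6, Rplp0 and Rpl13 varied least over the 8 groups, with ranges of group means from 0.26 to 0.34 log2 units. Rpl7l1 had the lowest correlation with the mean of the other members, at -0.14, a description over 24 libraries.

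Genes around the ribosome were read from lists for IRE1_KO_ITD against ITD in LSK, where 13.3% of all tested genes rose and 6.96% fell. Of the ribosomal protein genes with other symbols, Fau fell by 0.53 ± 0.11 (adjusted p = 0.0104), and Gnb2l1 was at -0.31 ± 0.11 (adjusted p = 0.0591). Of 25 other mRNAs with TOP motifs, a list that holds both, 8 fell and 1 rose, with a median of -0.32. Of 77 mitochondrial ribosomal proteins, 25 fell and 1 rose, with a median of -0.25. Of 55 ribosome biogenesis genes 8 fell and 2 rose, of 31 initiation factors 4 fell and 3 rose, of 6 elongation factors none passed, and of 9 chaperones of single ribosomal proteins 1 fell and 2 rose. Of 17 tested p53 targets 2 rose and 0 fell, of 10 genes of the MYC network 3 rose and 0 fell, and of 11 genes of mTORC1 and the S6 kinases 2 rose and 0 fell. The median of all tested genes was 0.06.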

How the data were processed

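The authors deposited 1 FPKM value per gene symbol and library. Per the submitters' processing notes, STAR, Cufflinks and mm10 were used; their versions are not given in the sources. How fragments with several matches were counted is also not given. Library kits differ between the texts: SMART-Seq v4 with Nextera XT per the labels' protocols, stranded TruSeq per the series description. FPKM carry no counts, so no count model was used. Log2(FPKM + 1) was fitted with limma 3.58.1 (R 4.3.3, mean-variance trend), with all 24 libraries for populations and 12 for genotypes within a population. A gene was tested where 3 or more of the fitted libraries reached 1 FPKM, with Benjamini-Hochberg adjustment per comparison and a threshold of 0.05. Fold changes understate low genes. Other scalings, filters, covariates and each library left out were tried as alternatives. The procedure was tested on simulated data with independent noise for each gene. Shifts shared by many genes and the choice of scaling were not simulated, so that test does not bear on them. Members, comparisons and 17 lists (313 of 317 entries matched) were chosen with earlier results of these data known, and 3 comparisons were added later. Named genes are the 5 highest, up to 5 called each way per comparison, the 5 widest and narrowest, members just beside the level limit, and a set chosen by role. The labels do not say what a replicate number marks. In ITD all 3 same-numbered LSK and GMP libraries deviated together (r of 0.198, 0.105 and 0.147), so the numbers may pair them there. Transcripts came from GENCODE M21. A few genes are not reported here by name.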

Additional observations from a re-analysis of the deposited data

Results flagged for a closer look

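The effect of Flt3-ITD differed between GMP and LSK by the test of the difference itself for 5 of 84 ribosomal protein genes, all lower in GMP, beside 7.1% of all genes lower and 6.45% higher. These 5 are 5.95% of the 84, a share no larger than that of all genes. The difference in log2 fold change was -0.76 for Rpl36al, -0.75 for Rpl30, -0.63 for Rpl7l1, -0.47 for Rpl27 and -0.34 for Rps16 (limma adjusted p = 0.0495 or lower). The call for Rpl30 was lost in 20 of 23 alternatives and that for Rps16 in 18 of 23.

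The difference between IRE1_KO_ITD and ITD was higher in GMP than in LSK for 50 of the 84 genes, beside 2.8% of all genes. Within LSK, the effect of the Ern1 label differed with and without Flt3-ITD for 3 of them, all lower, beside 5.58% of all genes lower. These 3 are 3.57% of the 84, again a share no larger than that of all genes. None of the 3 was called with quantile normalization, median-ratio size factors, either equal FPKM sum, no filter on low values or sex as a covariate.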

How the results depend on the processing

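Counts are called ribosomal protein genes of 84. The ITD difference and the Ern1 label difference are ITD against WT, and IRE1_KO_ITD against ITD, in GMP minus LSK, and an interaction is IRE1_KO_ITD against ITD minus IRE1_KO against WT within a population. The counts as reported were 15 for GMP against LSK in WT, 16 in ITD, 8 in IRE1_KO, 67 in IRE1_KO_ITD, 5 for the ITD difference, 50 for the Ern1 label difference, 6 for ITD against WT in LSK, 19 for IRE1_KO against WT in LSK, 67 for IRE1_KO_ITD against ITD in LSK, 5 for IRE1_KO_ITD against IRE1_KO in LSK, 3 for the LSK interaction, 1 for ITD against WT in GMP, 1 for IRE1_KO against WT in GMP, 0 for IRE1_KO_ITD against ITD in GMP, 18 for IRE1_KO_ITD against IRE1_KO in GMP and 0 for the GMP interaction. With quantile normalization they were 42 for GMP against LSK in WT, 28 in ITD, 19 in IRE1_KO, 21 in IRE1_KO_ITD, 2 for the ITD difference, 0 for the Ern1 label difference, 6 for IRE1_KO_ITD against ITD in LSK, 13 for IRE1_KO_ITD against IRE1_KO in LSK, 0 for the LSK interaction and 1 for IRE1_KO_ITD against ITD in GMP. With an equal FPKM sum over all but short loci they were 51 for GMP against LSK in WT, 39 in ITD, 36 in IRE1_KO_ITD, 1 for the ITD difference, 22 for the Ern1 label difference, 58 for IRE1_KO against WT in LSK, 15 for IRE1_KO_ITD against ITD in LSK, 0 for the LSK interaction, 0 for IRE1_KO against WT in GMP and 45 for IRE1_KO_ITD against IRE1_KO in GMP. With the ribosomal protein genes also left out of that sum, an alternative chosen after seeing the data, they were 52 for GMP against LSK in WT, 50 in ITD, 37 in IRE1_KO_ITD, 1 for the ITD difference, 30 for the Ern1 label difference, 61 for IRE1_KO against WT in LSK, 15 for IRE1_KO_ITD against ITD in LSK, 0 for the LSK interaction, 0 for IRE1_KO against WT in GMP and 55 for IRE1_KO_ITD against IRE1_KO in GMP. With length and GC correction, fitted for 99.3% of genes, they were 25 for GMP against LSK in WT, 18 in IRE1_KO, 26 in IRE1_KO_ITD, 2 for the ITD difference, 3 for the Ern1 label difference, 16 for ITD against WT in LSK, 6 for IRE1_KO against WT in LSK, 3 for IRE1_KO_ITD against ITD in LSK, 3 for ITD against WT in GMP, 0 for IRE1_KO against WT in GMP, 1 for IRE1_KO_ITD against ITD in GMP and 43 for IRE1_KO_ITD against IRE1_KO in GMP. With no filter on low values they were 9 for GMP against LSK in ITD, 5 in IRE1_KO, 3 for the ITD difference, 11 for the Ern1 label difference, 3 for IRE1_KO against WT in LSK, 26 for IRE1_KO_ITD against ITD in LSK, 2 for IRE1_KO_ITD against IRE1_KO in LSK, 0 for the LSK interaction and 7 for IRE1_KO_ITD against IRE1_KO in GMP. With median-ratio size factors they were 1 for GMP against LSK in ITD, 41 in IRE1_KO, 26 for the Ern1 label difference, 68 for IRE1_KO against WT in LSK, 0 for the LSK interaction, 6 for ITD against WT in GMP and 4 for IRE1_KO_ITD against IRE1_KO in GMP. In fits of the compared libraries alone they were 1 for GMP against LSK in ITD, 2 in IRE1_KO, 2 for the ITD difference, 0 for the Ern1 label difference, 3 for IRE1_KO against WT in LSK, 1 for IRE1_KO_ITD against IRE1_KO in LSK and 10 for IRE1_KO_ITD against IRE1_KO in GMP. With the replicate block they were 17 for GMP against LSK in IRE1_KO and 1 for the LSK interaction. With sex as a covariate they were 3 for the ITD difference, 3 for ITD against WT in LSK, 4 for IRE1_KO against WT in LSK, 0 for the LSK interaction, 0 for ITD against WT in GMP and 9 for IRE1_KO_ITD against IRE1_KO in GMP. Leaving out each library in turn gave 8 to 13 for GMP against LSK in WT, 6 to 18 in ITD, 4 to 25 in IRE1_KO, 50 to 66 in IRE1_KO_ITD, 1 to 6 for the ITD difference, 1 to 66 for the Ern1 label difference, 3 to 7 for ITD against WT in LSK, 2 to 62 for IRE1_KO against WT in LSK, 10 to 46 for IRE1_KO_ITD against ITD in LSK, 3 to 8 for IRE1_KO_ITD against IRE1_KO in LSK, 0 to 6 for the LSK interaction, 1 to 2 for ITD against WT in GMP, 1 for IRE1_KO against WT in GMP, 0 for IRE1_KO_ITD against ITD in GMP, 3 to 29 for IRE1_KO_ITD against IRE1_KO in GMP and 0 for the GMP interaction. Every count not listed under a setting was within 1.5 times the reported one. The block changed no other call count by more than that, which includes GMP against LSK in ITD, with 1 member higher and 21 lower under the block. Deviations of same-numbered libraries correlated at -0.10 to 0.24 between LSK and GMP of a genotype and at -0.34 to 0.10 between genotypes of a population. Outside ITD at least 1 pair of each genotype lay under 0.1. The counts as reported used no pairs in any genotype, ITD included. By Xist and Y-linked genes, replicates 2 and 3 of IRE1_KO_ITD differed in sex between LSK and GMP, so those are not pairs from the same animal. In WT, ITD and IRE1_KO the sexes of same-numbered libraries agreed, which does not settle whether they are pairs. Rps9 in GMP against LSK of IRE1_KO turned from a fall to 0.0036 with median-ratio size factors. The cause of these changes was not tested. With 3 libraries a group and no counts, differences smaller than the spread between libraries were not detectable.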
